A study of Mus musculus with 2 samples.

Results

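The 4 adult globin genes (Hba-a1, Hba-a2, Hbb-bs, Hbb-bt) and 5 genes of the red cell membrane (Ermap, Rhag, Slc4a1, Ank1, Epb41) were read in common myeloid progenitors (CMP) of the mouse. These 9 genes were chosen by name, for their place in the mature red cell, from 43346 mouse genes in the deposited tables, and all 9 were found. The data are 2 total RNA libraries of 1 group, and each stands for 100 pooled primary cells of adult C57BL/6J males aged 5 to 6 weeks, with RNA above 200 nucleotides sequenced. The labels call them biological replicates 1 and 2 and list a biosample for each, under 1 shared donor identifier. No genotype, agent or time point differs between them, so the comparisons are between genes within CMP and between the 2 libraries. Any test between the libraries measures only the spread between these samples, which may be technical.

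Haemoglobin carries oxygen as a tetramer of a pair of alpha chains and a pair of beta chains, and its genes are switched on strongly only in maturing erythroblasts. Laboratory mice carry near-identical tandem copies of the adult alpha gene on chromosome 11, and C57BL/6 mice carry a pair of closely alike adult beta genes, Hbb-bs and Hbb-bt, on chromosome 7. The red cell membrane is held by a spectrin network under the lipid bilayer. Ankyrin, encoded by Ank1, ties spectrin to the anion exchanger band 3, encoded by Slc4a1, and the protein encoded by Epb41 ties spectrin and actin to membrane proteins. Rhag encodes a glycoprotein of the Rh blood group complex, and Ermap encodes the butyrophilin-like protein that carries the Scianna blood group. CMP are bone marrow cells that can still form red cells, megakaryocytes, granulocytes and monocytes.

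How far the globin copies can be told apart depends on their sequence, so the bases that separate them are shown first. In the GENCODE M21 annotation, the coding transcripts of Hba-a1 and Hba-a2 matched at 537 of 538 aligned bases, and the 1 difference was C577T, counted from the first base of the Hba-a1 transcript. It lies in coding sequence of exon 3. Apart from this base, the models differ only at their ends, the Hba-a1 model beginning 161 bases further upstream. Those of Hbb-bs and Hbb-bt matched at 578 of 621 aligned bases, with an unbroken identical run of 430 bases. Of their 43 mismatches, 1 was coding (C470T, counted from the first base of the Hbb-bs transcript, in exon 3), and both coding sequences are 441 bases long. The Hbb-bs transcript compared here is 628 bases long in M21 and 778 bases in the deposited table, so it is not the full model over which the authors divided reads. The 41 coding bases around each of these differences are given below on the transcript strand, with the differing base as a capital (GRCm38: Hba-a1 chr11:32284323-32284363, plus strand; Hba-a2 chr11:32297140-32297180, plus strand; Hbb-bs chr7:103826672-103826712, minus strand; Hbb-bt chr7:103812663-103812703, minus strand).

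Hba-a1: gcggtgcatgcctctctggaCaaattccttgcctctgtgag
Hba-a2: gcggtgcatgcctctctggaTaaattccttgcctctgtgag
Hbb-bs: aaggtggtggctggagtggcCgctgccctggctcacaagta
Hbb-bt: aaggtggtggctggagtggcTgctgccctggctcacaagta

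Of all 50-base windows of the Hba-a1 transcript, 67.5% also occur in that of Hba-a2, and 86.9% of the Hba-a2 windows occur in Hba-a1. Hba-a1 windows that begin in its 161 extra upstream bases count as unshared because the Hba-a2 model begins later. The genome holds the same bases before the Hba-a2 model, within the identical upstream run of 247 bases described below. Those windows thus separate the transcript models and not the gene sequences. A read from a shared window cannot be given to a copy by its sequence alone. The deposited expected counts divide such reads between the copies, so counts of single copies are estimates, and sums over the copies of a chain are used for comparisons between chains.

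Promoter windows of Hba-a2, Ermap and Rhag are shown because they differ in the motifs they hold. RefSeq promoter entries (GRCm38.p6) matched 7 of the 9 members. Each window below is the 150 bases before the annotated start, 5′ to 3′ on the gene's strand (Hba-a2 chr11:32296342-32296491, plus strand; Ermap chr4:119189996-119190145, minus strand; Rhag chr17:40810999-40811148, plus strand). Capitals mark matches on either strand to GATAA, the core read by GATA factors, CACCC, the core read by erythroid Kruppel-like factors, CCAAT and TATAA.

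Hba-a2: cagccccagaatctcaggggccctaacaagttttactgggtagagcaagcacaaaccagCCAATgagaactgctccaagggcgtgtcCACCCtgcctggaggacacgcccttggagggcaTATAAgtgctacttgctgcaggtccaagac
Ermap: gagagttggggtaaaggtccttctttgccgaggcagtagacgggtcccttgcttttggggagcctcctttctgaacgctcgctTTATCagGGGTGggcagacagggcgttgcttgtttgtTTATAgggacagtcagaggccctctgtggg
Rhag: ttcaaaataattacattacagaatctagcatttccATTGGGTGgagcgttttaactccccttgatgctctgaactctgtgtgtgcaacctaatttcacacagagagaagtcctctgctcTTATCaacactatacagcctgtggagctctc

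A GATAA match began at position -67 from the start in Ermap and at -31 in Rhag, and the Hba-a2 window held none. The windows of Hba-a1, Hbb-bs and Hbb-bt and all 3 windows of Epb41, which are not shown, held none either. In Rhag the matches to CCAAT and CACCC overlap by a few bases. Among 32851 promoter windows of the same length, 13.3% held GATAA, 37.4% CACCC, 24.5% CCAAT and 14.2% TATAA. Over 250 upstream bases, Hba-a1 and Hba-a2 share an identical run of 247 bases, while the 150-base windows of Hbb-bs and Hbb-bt were 73.6% identical. A match is a string of letters and does not show that a factor binds there.

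Replicate 1 held 28916263 expected counts and replicate 2 held 26426710. At this depth 0 counts allow up to 0.104 and 0.114 counts per 1000000 (CPM), the level of 3 counts, and these limits cover counting error only, because the reads carry no molecular identifiers. Of the 6 genes of the CMP gate 3 were detected in both libraries, Kit at 98.1 and 92.95 TPM (transcripts per 1000000, a level corrected for transcript length), Cd34 at 74.5 and 55.4, and Fcgr2b at 2.48 and 9.59. Ly6a and Il7r, which the gate selects against, had 0 counts in both. All 8 early erythroid-megakaryocyte genes were detected in both libraries, against 2 of 6 neutrophil genes, 2 of 5 B cell genes (Cd79b and Ighm) and 0 of 4 T cell genes. In RNA from pooled cells, fewer cells that carry a transcript and less of it per cell cannot be told apart.

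A gene was called detected at 1 TPM or more. Of the 9 members 7 were detected in both libraries, where 44.9% of 21461 nuclear protein-coding genes were. At least 50 expected counts in both libraries were reached by 5 members (Hba-a1, Ermap, Rhag, Ank1 and Epb41), where 44.4% of nuclear protein-coding genes reached this. The members' median was 17.9 TPM in replicate 1 and 18.4 in replicate 2, beside 0.32 and 0.56 for all nuclear protein-coding genes and 13.2 and 13.5 for those detected in both libraries. By mean TPM the order was Ermap, Epb41, Hba-a2, Ank1, Rhag, Hbb-bs, Hba-a1, Hbb-bt and Slc4a1. Of the 8 neighbouring pairs in this order 5 overlapped between the libraries. Ermap stood above Epb41, Ank1 above Rhag and Hba-a1 above Hbb-bt in both libraries, the gap between Ank1 (lowest 18.6 TPM) and Rhag (highest 18.4) being narrow.

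**Figure D1:**
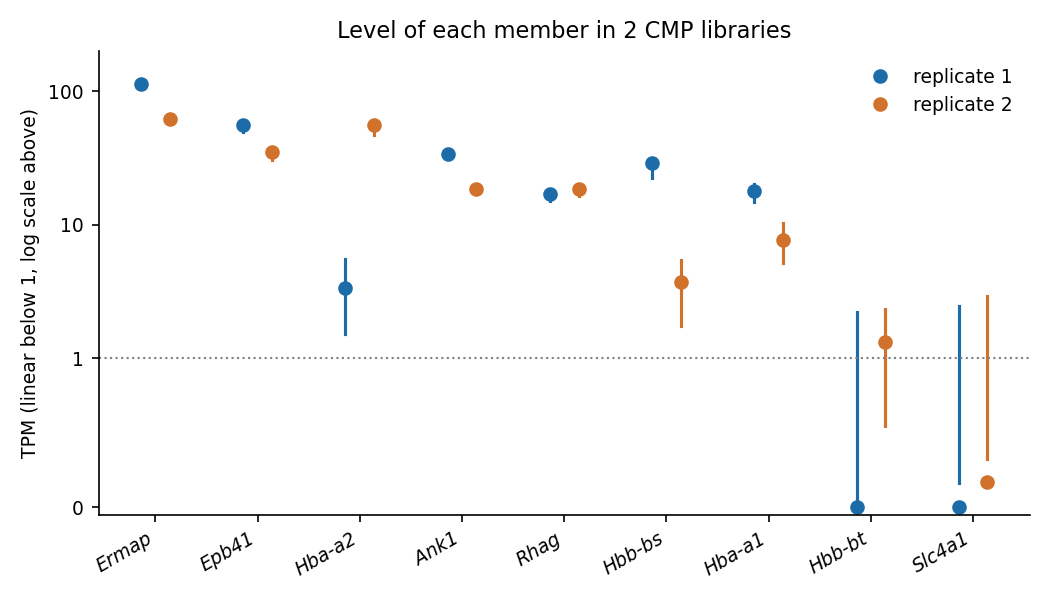
TPM (vertical axis, linear below 1 and log scale above) of each of the 9 members (horizontal axis, by mean TPM) in replicate 1 (blue) and replicate 2 (orange). Points are the deposited TPM, vertical lines the deposited TPM interval, whose level is not given in the sources used here, and the dotted line is 1 TPM. Ermap is highest in each library at 113.0 and 61.8 TPM, Hba-a2 and Hbb-bs have the largest ratios between libraries among the detected members, and the Slc4a1 points lie below their intervals.

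Globin transcripts were read in both libraries, and the share of each chain and copy differed between them. Among nuclear protein-coding genes, Hba-a1 lay above 82.3% in replicate 1 and 68.7% in replicate 2, Hba-a2 above 59.8% and 95.1%, and Hbb-bs above 89.2% and 60.1%. Hba-a1 (chromosome 11, 32283511 to 32284465), the upstream alpha copy, had 203.7 expected counts in replicate 1 and 85.2 in replicate 2, or 17.9 and 7.74 TPM. Hba-a2 (chromosome 11, 32296489 to 32297298) had 28.3 and 444.8 expected counts, or 3.37 and 55.3 TPM. Replicate 1 was thus the higher library for Hba-a1 and the lower one for Hba-a2. The leading copy changed with the library, Hba-a1 taking 87.8% of the alpha counts in replicate 1 and Hba-a2 83.9% in replicate 2. The posterior SD of the deposited counts, 7.28 in replicate 1 and 12.7 in replicate 2 for each alpha copy, was far below these differences. That SD covers the division of reads between copies and not the spread between cells or libraries.

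Hbb-bs (chromosome 7, 103826534 to 103828096), the major beta gene of this strain, had 245 expected counts in replicate 1 and 22.2 in replicate 2, or 28.7 and 3.75 TPM. Hbb-bt (chromosome 7, 103812524 to 103813996) had 0 and 14.8 expected counts, or 0 and 1.33 TPM. Its 15 rounded counts in replicate 2 have a 95% Poisson interval of 8.40 to 24.7, and its posterior count in replicate 1 was 7.73 with an SD of 8.25. Hbb-bs was therefore the higher in replicate 1, and Hbb-bt rested on few reads in either library. Summed over copies, beta counts were 245 and 37.0, and alpha counts 232 and 530.

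All 4 globin copies together reached 50.01 TPM in replicate 1 and 68.1 in replicate 2, a smaller difference than that of either chain. Alpha summed to 21.3 and 63.1 TPM and beta to 28.7 and 5.08 TPM. On the log2(TPM + 1) scale, alpha over beta was -0.42 in replicate 1 and 3.40 in replicate 2 (mean 1.49, SD 2.70). The chains were thus within 2-fold of each other in replicate 1, alpha over beta being 0.741 in TPM, and 12.4-fold apart in replicate 2. The ratio changed sign between the libraries. It also depends on which transcripts are summed, since 46.5% and 40.9% of the Hbb-bs counts were assigned to a transcript with a retained intron and all alpha counts to coding ones. Over coding transcripts alone, a sum chosen after seeing the data, beta was 15.0 and 3.93 TPM against the same alpha values. The log2 ratio was then 0.48 and 3.70, with alpha the higher chain in both libraries. The 10 other globin genes matched, which include the embryonic genes Hba-x, Hbb-y, Hbb-bh1 and the genes Hbb-bh0, Hbb-bh2, Hbq1a, Hbq1b, Cygb, Ngb and Mb, all had 0 counts in both libraries.

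**Figure D2:**
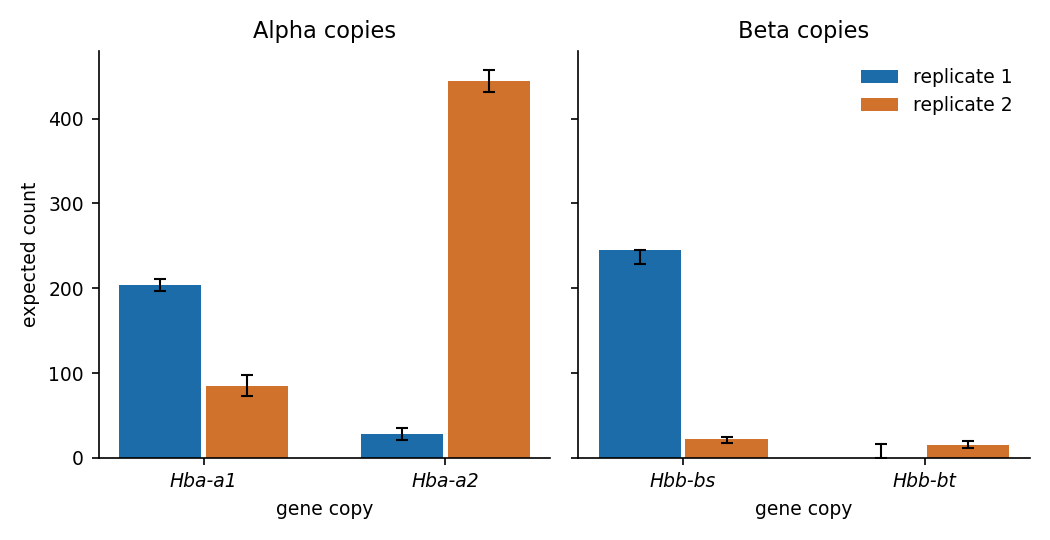
Expected count (vertical axis) of each adult globin copy (horizontal axis) in replicate 1 (blue bars) and replicate 2 (orange bars). Black bars are the posterior mean count ± the posterior SD deposited by the authors. Hba-a1 leads the alpha copies in replicate 1 (203.7 against 28.3) and Hba-a2 in replicate 2 (444.8 against 85.2), and beta counts are mostly Hbb-bs of replicate 1.

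Among the surface genes, Ermap was the highest member and Slc4a1 the lowest. Ermap (chromosome 4, 119175457 to 119190011) had 7317 expected counts in replicate 1 and 4429 in replicate 2, or 113.0 and 61.8 TPM. It lay above 98.2% and 95.8% of nuclear protein-coding genes. Rhag (chromosome 17, 40811126 to 40840754) had 760 and 821 expected counts, or 16.9 and 18.4 TPM (mean 17.6, SD 1.09), the smallest difference in TPM among the 7 detected members. Rhag is annotated with 1 transcript of 2339 bases, so its TPM does not depend on a transcript mix.

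Slc4a1 (chromosome 11, 102348824 to 102366203) had 0 expected counts in replicate 1 and 15 in replicate 2, or 0 and 0.17 TPM. Its counts in replicate 2 have a 95% Poisson interval of 8.40 to 24.7, and all 15 were assigned to the coding transcript of 4545 bases. In replicate 1, 3 counts on that transcript would equal 0.0332 TPM, so Rhag was at least 508-fold higher and Ermap at least 3404-fold higher there. In replicate 2, where Slc4a1 had counts, Rhag was 108-fold and Ermap 363.5-fold higher. The bounds assume the coding transcript and counting error only, and the deposited interval of Slc4a1 in replicate 1 reaches 2.47 TPM over all its transcripts. Band 3 mRNA was thus at or near 0 while Rhag, Ank1 and Epb41 had at least 760 counts in each library. The deposited posterior mean of Slc4a1 was 1.16 TPM at 0 counts and 1.45 TPM at 15 counts, above 1 TPM in both libraries without reads to match in replicate 1. Of the other SLC4 genes, Slc4a2, the widely expressed anion exchanger, had 415 and 488 expected counts (14.3 and 28.0 TPM), at least 430-fold above Slc4a1 in replicate 1 and 165-fold above it in replicate 2. The sodium bicarbonate cotransporter gene Slc4a7 had 689 and 530 expected counts (4.63 and 3.58 TPM). Of the 4 markers of kidney intercalated cells, the other site known for Slc4a1, 0 were detected.

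Both linker genes of the skeleton were read in both libraries. Ank1 (chromosome 8, 22974844 to 23150497) had 2921 expected counts in replicate 1 and 2244 in replicate 2, or 34.1 and 18.6 TPM. Epb41 (chromosome 4, 131923413 to 132075321) had 2899 and 2967 expected counts, or 55.8 and 35.0 TPM. The Epb41 counts were nearly alike while its TPM was 1.59-fold higher in replicate 1, since the mean transcript length assigned to the gene was 2674 bases in replicate 1 and 4297 in replicate 2. For Ank1 that length was 4316 and 6057 bases. TPM ranks of these genes therefore carry the transcript assignment described next.

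The leading transcript's share was called different between the libraries for Ermap and Epb41, and not for Ank1 or Hba-a1. Of 7354 genes tested, 5715 or 77.7% were called (Fisher's exact test, two-sided, on rounded counts with Benjamini-Hochberg adjustment). Hba-a1 had all its counts on 1 transcript in both libraries, so it could not be called. The test takes assigned counts as observed reads, and its p values leave out assignment error and the spread between libraries. The leading coding Ermap transcript of 4551 bases held 64.8% of the gene's counts in replicate 1 and 76.2% in replicate 2 (adjusted p = 1.90e-38, Fisher's exact test). Of the genes tested, 53.0% shifted at least as much. Ermap transcripts marked for nonsense-mediated decay held 29.3% and 15.3%. The 4378-base one alone had 1829 and 605.6 expected counts, and short ones of 629 and 752 bases held 14.2% and 11.1% of the TPM in replicate 1. By counts, the coding share of Ermap was the larger one in both libraries, and higher in replicate 2. By TPM, coding transcripts held 49.95% of the gene in replicate 1 and 69.4% in replicate 2. Among coding transcripts alone the leading one held 99.2% and 98.5%, a small fall (adjusted p = 0.00782, Fisher's exact test).

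The leading Epb41 transcript, 5074 bases long and annotated as processed without a coding sequence, rose from 50.7% of the counts in replicate 1 to 85.3% in replicate 2 (adjusted p = 9.24e-184, Fisher's exact test). A shift at least this large was seen in 22.95% of the genes tested. Coding Epb41 transcripts held 39.4% and 8.92% of the counts, and the 3120-base coding transcript had 460.5 counts in replicate 1 and 0 in replicate 2. A processed transcript of 644 bases took 50.1% of the TPM in replicate 1 from 9.89% of the counts, and 13.8% of the TPM in replicate 2. Most Epb41 reads were thus placed on models without a coding sequence in both libraries, the more so in replicate 2.

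Ank1 reads were assigned to 3 separate start regions and to 1 transcript with a retained intron, and none to the most upstream start. The starts at 23035099 to 23035231, which lie 60255 bases downstream of the first annotated start, held 827.8 counts in replicate 1 and 985.2 in replicate 2. The starts at 23058259 to 23058525 held 1327 and 970.7, nearly all on the leading transcript of 8201 bases (45.4% and 43.3% of the counts, adjusted p = 0.165, Fisher's exact test). The internal starts from 23139030, which lie 164186 bases downstream of the first, held 449.3 and 88.1 counts. Short ankyrin forms from an internal start are known from striated muscle. Here these short transcripts, of 1740 and 1030 bases, took 46.7% of the TPM of Ank1 in replicate 1 and 15.5% in replicate 2. Transcripts of 6794 bases (0 and 467.6 counts) and 6566 bases (444.0 and 362.1 counts) belong to the first of the regions read, and the 4304-base transcript with a retained intron had 317 and 200 counts. The antisense gene Gm15816, which overlaps the internal starts on the other strand, had 0 counts in both libraries.

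**Figure D3:**
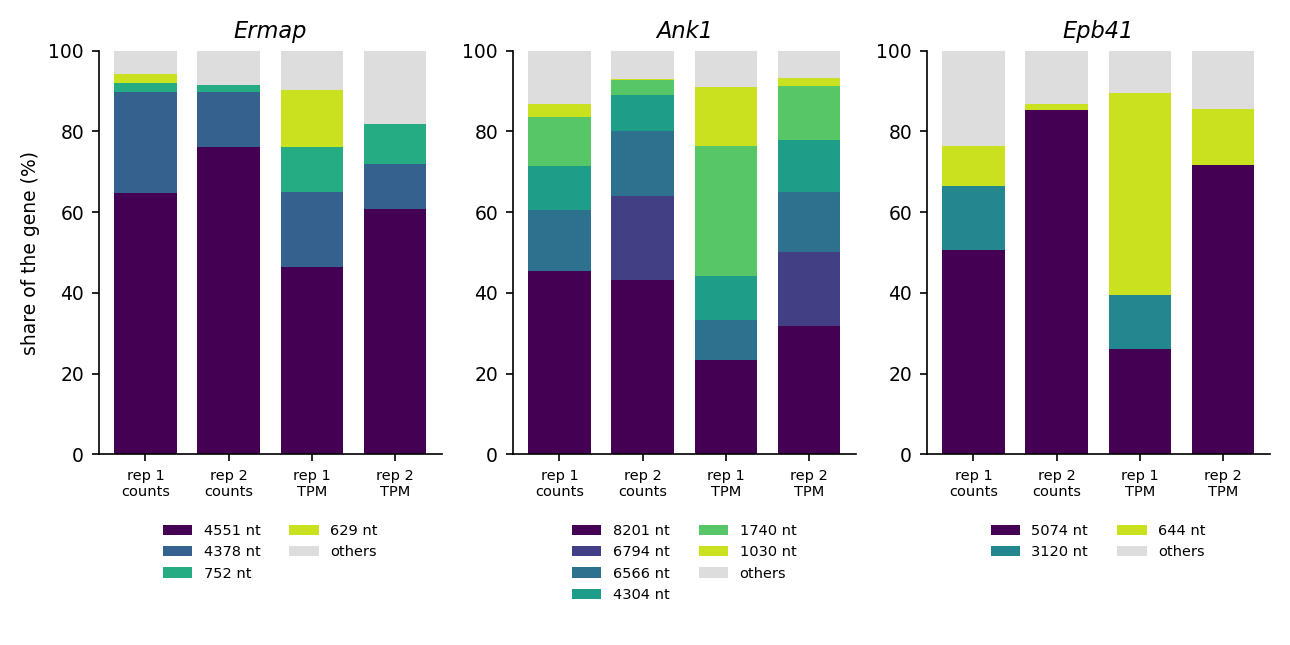
Share of each gene (vertical axis, percent) taken by its transcripts in replicate 1 and 2, by expected counts (left pair of bars) and by TPM (right pair), for Ermap, Ank1 and Epb41. Colours are transcripts holding at least 10% of the gene's TPM in a library, named by length in nucleotides (nt), and grey is the rest. The 644-base Epb41 transcript is a small share of counts and 50.1% of TPM in replicate 1.

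Set against each other by the exact binomial test (two-sided, TMM-scaled counts, Benjamini-Hochberg adjusted at 0.05), the libraries differed for 10647 of 13616 genes, or 78.2%. Of all genes tested, 37.6% were higher in replicate 1 and 40.6% in replicate 2. The members differed about as often, 7 of 9, with 4 higher in replicate 1 (Hba-a1, Hbb-bs, Ermap, Ank1) and 3 higher in replicate 2 (Hba-a2, Hbb-bt, Slc4a1). This test asks only whether counts differ beyond counting noise. A common dispersion of 0.575 for the spread between libraries was estimated from the same 2 libraries, taken as 1 group. With it the edgeR exact test called 0 genes, and 1541 had an unadjusted p under 0.05. The difference under test is part of that spread, so few calls were likely in advance and no conclusion is drawn from them.

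Hba-a2 had the largest difference among members with counts in both libraries, a log2 ratio of replicate 2 over replicate 1 of 3.94 (adjusted p = 4.09e-94, exact binomial test), and 12.9% of the genes tested differed at least as much. Hbb-bs differed the other way by -3.48 (adjusted p = 2.40e-48, exact binomial test), as did Hba-a1 by -1.29 (adjusted p = 1.79e-12, exact binomial test). With the copies summed, alpha was higher in replicate 2 at 1.16 (adjusted p = 1.83e-25, exact binomial test) and beta lower at -2.74 (adjusted p = 1.27e-38, exact binomial test). The chains thus moved in opposite directions also when the division between copies plays no part. The 13 markers of late erythroid cells and reticulocytes that are no members summed to 237.5 TPM in replicate 1 and 196.7 in replicate 2, and 12 of the 14 matched markers were detected in both, Alas2 having 0 counts. The part of such cells in the globin difference was not tested.

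The membrane genes other than Slc4a1 differed less. The log2 ratio was -0.75 for Ermap (adjusted p = 3.63e-166, exact binomial test), and 38.2% of the genes tested differed at least as much. It was -0.41 for Ank1 (adjusted p = 3.71e-23, exact binomial test), below the median absolute ratio of 0.51 over all genes tested. Rhag at 0.08 (adjusted p = 0.293, exact binomial test) and Epb41 at 0.01 (adjusted p = 0.901, exact binomial test) were not called. Scaling by total counts moved the median of all genes from 0.03 to 0.23 and the split of calls to 3632 higher in replicate 1 and 7158 in replicate 2, from 5121 and 5526. Under it Rhag at 0.29 (adjusted p = 0.000138, exact binomial test) and Epb41 at 0.21 (adjusted p = 8.09e-08, exact binomial test) were called higher in replicate 2. Slc4a1 and Hbb-bt, with 0 against 15 rounded counts, were each called (adjusted p = 0.000106, exact binomial test), and no fold is given for them.

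**Figure D4:**
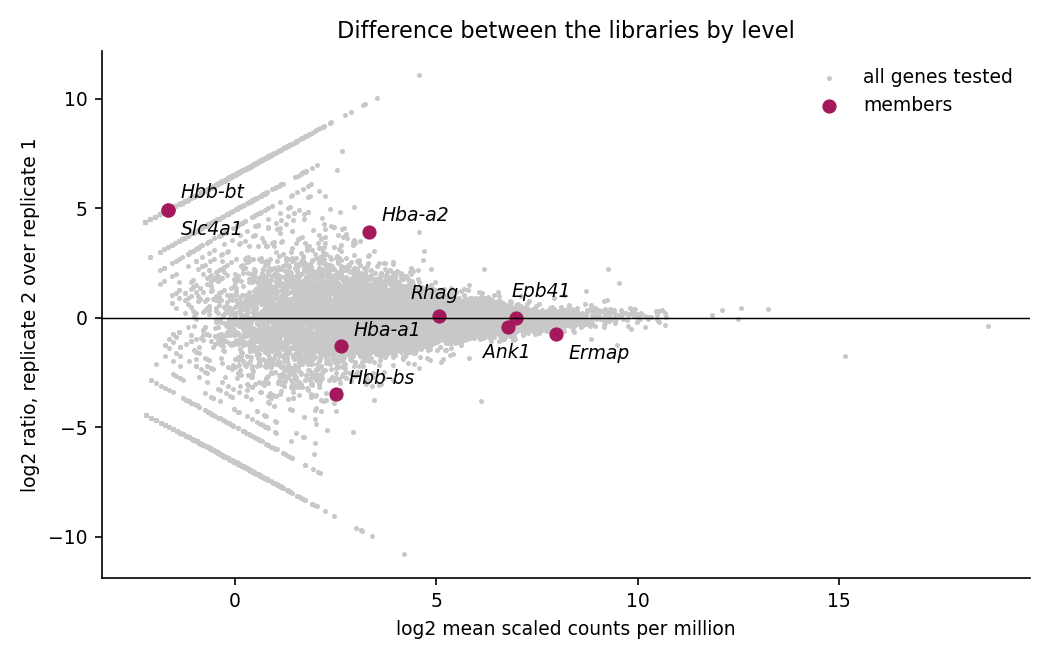
Log2 ratio of replicate 2 over replicate 1 (vertical axis) against log2 of the mean scaled CPM (horizontal axis) for the 13616 genes tested (grey) and the members (purple). Diagonal lines of points are genes with 0 or few counts in a library, where Slc4a1 and Hbb-bt share a point. Epb41 and Rhag lie near 0, and Hba-a2 at 3.94 and Hbb-bs at -3.48 are the members farthest from it with counts in both.

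The partners of the membrane members were largely present. The counts of called genes given below for each list are by the exact binomial test. They are read beside the 37.6% of all genes called higher in replicate 1 and the 40.6% in replicate 2. The edgeR exact test, whose dispersion came from these same 2 libraries, called 0 of all genes. Of 15 skeleton genes 14 were detected in both libraries. The highest were beta-actin (Actb) at 1010 and 938.8 TPM, the tropomyosin gene Tpm3 at 163.1 and 158.7, and the adducin gene Add1 at 69.97 and 64.5. Next came the spectrin genes Sptan1 at 24.6 and 28.1 TPM and Sptbn1 at 23.2 and 26.5, and the tropomyosin gene Tpm1 at 21.8 and 25.03. These 6 are also used outside red cells. The beta spectrin gene Sptb, named after its values were seen, was lower, at 5.68 and 3.92 TPM. Between the libraries 11 of the 15 were called by the exact binomial test, 7 higher in replicate 1 and 4 higher in replicate 2 (median log2 ratio -0.10).

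Of 22 surface and transport genes 19 were detected in both libraries. The highest were Cd47, which signals to macrophages, at 115.5 and 117.1 TPM, Bsg, which encodes basigin, at 87.6 and 138.5, and the water channel gene Aqp1 at 102.3 and 92.1. Kel, the Kell blood group protease, had 47.8 and 119.6 TPM, the transferrin receptor gene Tfrc 50.6 and 61.8, and the urea transporter gene Slc14a1 50.8 and 53.4. These 6 were picked as the highest of the list, so their standing above Rhag and Slc4a1 in both libraries is no separate result. Xk, Icam4 and Art4 of the same list, named after their values were seen, stood below Rhag in both. The list median was 23.3 and 26.8 TPM. Rhd, the Rh partner of Rhag, named after its values were seen, had 24.4 and 27.6 TPM. The genes Aqp3, Bcam and Ackr1 had 0 counts in both libraries. Of the 19 tested between the libraries, 6 were called higher in replicate 1 and 8 in replicate 2 (median log2 ratio 0.13).

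Relatives of the membrane members from the ankyrin, EPB41, SLC4, Rh and butyrophilin families were mostly low. Of 20 such genes 5 were detected in both libraries: Slc4a2, Slc4a7, Epb41l4b at 6.72 and 6.84 TPM, Epb41l2 at 4.84 and 3.70, and Epb41l1 at 3.66 and 1.47. The 9 with 0 counts in both were Ank2, Epb41l3, Epb41l4a, Slc4a4, Slc4a5, Slc4a10, Rhbg, Btn1a1 and Btn2a2. Ank1 and Epb41 thus had higher TPM than every relative of theirs on the list in each library. Of the 9 relatives tested between the libraries, 7 were called higher in replicate 1 and 2 in replicate 2 (median log2 ratio -0.84).

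All 18 regulators of globin and membrane genes passed 1 TPM in each library, and their median was 54.3 TPM in replicate 1 and 53.2 in replicate 2. The highest were the LIM-domain factor Lmo2 at 198.7 and 238.2 TPM, Myb, a factor of proliferating progenitors, at 208.5 and 218.9, and Ldb1, the partner of Lmo2, at 155.3 and 167.5. Nfe2 had 149.7 and 102.7 TPM, the globin repressor Bcl11a 82.9 and 105.8, and Zfpm1, the cofactor of GATA1, 76.1 and 85.7. Gata1 at 53.9 and 52.6 TPM and Klf1 at 47.0 and 37.1, both named after their values were seen, stood above all 4 globin copies in replicate 1, and below Hba-a2 in replicate 2. Of the 18, 4 were called higher in replicate 1 and 11 in replicate 2 (median log2 ratio 0.14).

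**Figure D5:**
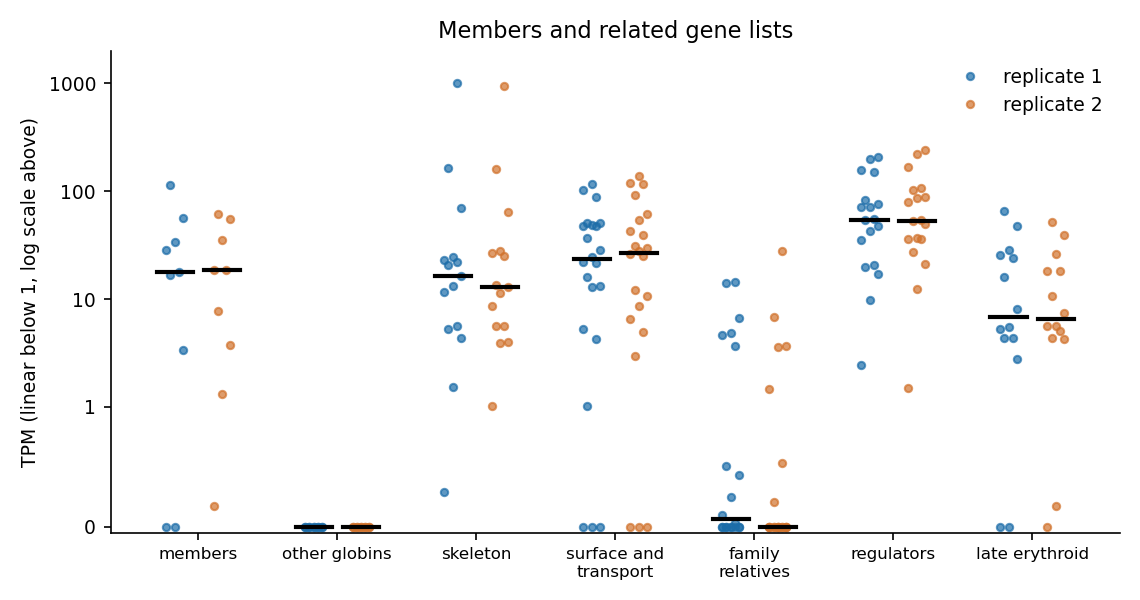
TPM (vertical axis, linear below 1 and log scale above) of each gene of the members and of 6 related lists (horizontal axis) in replicate 1 (blue) and replicate 2 (orange), with the median of each list as a black line. The lists are other globins, skeleton, surface and transport, family relatives, regulators and late erythroid genes. Other globins lie at 0, regulators have the highest medians of the lists plotted (54.3 and 53.2 TPM), and the members spread from 0 to 113.0 TPM.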

How the data were processed

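The samples were 2 pools of 100 CMP whose total RNA was sequenced with spike-ins. The authors aligned reads to mouse build mm10 with GENCODE M4, per the notes deposited with the tables. The aligner, the quantifier and the strand setting were not given in the sources used here. In the deposited tables, expected counts divide reads shared between genes or transcripts. The deposited TPM values are per 1000000 transcripts over all entries, spike-ins and tRNA included, so nuclear protein-coding genes held 37.8% and 39.3% of them. The deposited percent values give each transcript's share of its gene's TPM. The deposited tables also hold posterior means, SDs and TPM intervals.

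Unversioned identifiers matched GENCODE M21 for 42462 of 43346 genes. Members and lists were chosen with earlier results of these data known. Named genes are all members, from each related list up to 6 of the highest detected in both libraries, and those at 0 counts. Expected counts were rounded for the tests. The exact binomial test took TMM scaling (edgeR 4.0.16) and a minimum of 10 counts in at least 1 library, and Fisher's test took genes with several transcripts and a minimum of 50 counts in both libraries (scipy 1.17.1). On counts simulated with counting noise alone, the binomial test recovered 82% of 1.5-fold changes and 96% of 4-fold changes among 13330 genes. Fisher's test, on such counts, recovered 91.5% of shifts of 20 percentage points among 7354 genes. The simulations held no spread between libraries and no assignment error, so they do not show how the tests fare on these data. Alternatives were DESeq2 1.42.0 size factors, total counts, other thresholds, posterior means, TPM rescaled over nuclear protein-coding genes, CPM, the edgeR exact test, summed copies, coding transcripts alone and each library alone. With 2 libraries of 1 group, likeness of expression pattern to other genes could not be measured. Hbb-b1, Hbb-b2 and Ahsp were on the lists and did not match an entry. Values of some single list genes are not reported here.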

Additional observations from a re-analysis of the deposited data

How the results depend on the processing

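Without replicate 1 or without replicate 2 the log2 ratio of alpha to beta globin ranged from -0.42 to 3.40, so its sign rests on the library; the cause was not tested. Over coding transcripts alone, an alternative chosen after seeing the data, the mean was 2.09 in place of 1.49, with alpha higher in each library. TPM rescaled over nuclear protein-coding genes raised every member's mean, by construction, to 228.3 (Ermap), 118.4 (Epb41), 74.9 (Hba-a2), 68.8 (Ank1), 45.8 (Rhag), 42.8 (Hbb-bs), 33.6 (Hba-a1), 1.69 (Hbb-bt) and 0.216 (Slc4a1), with 7 members still at 1 TPM or more in both libraries. The posterior mean gave Slc4a1 1.305 TPM in place of 0.085, on the same counts, and so 8 detected members. The edgeR exact test at a common dispersion called 0 genes against 10647, with 1541 at an unadjusted p under 0.05. In it adjusted p was at least 0.358 for each member. That dispersion was estimated from the same 2 libraries, so few calls were likely in advance. The other scalings, no count minimum and summed copies gave 10645 to 10790 calls. The leading Ermap transcript gained 11.4 percentage points over all transcripts and changed by -0.67 among coding transcripts alone, which leave out the transcripts marked for decay. Among coding transcripts alone the Ank1 difference of -3.43 points was called (adjusted p = 0.0296, Fisher's exact test), against -2.10 in all. For Epb41 the leading coding transcript, of 6565 bases, held 37.1% of the coding counts in replicate 1 and 94.4% in replicate 2 (adjusted p = 9.12e-72, Fisher's exact test). The coding counts of Epb41 were 1143 in replicate 1 and 264.7 in replicate 2. By CPM, which is not corrected for length, 7 of 9 members changed rank, Ermap and Epb41 staying first and second. At 5 TPM, 5 members were detected in both libraries. No paired analysis was possible because both libraries belong to 1 group. Depth limits Slc4a1 and Hbb-bt, each with 0 counts in a library.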

Other observations

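In some genes outside the members TPM differed more between the libraries than counts did, as in Epb41. Kel had 47.8 TPM in replicate 1 and 119.6 in replicate 2, from 1192 and 1413 expected counts. Slc4a8, a bicarbonate transporter gene, had 165 and 70 expected counts, and 14.1 and 0.53 TPM. Genes of later red cell steps were read beside near-absent Slc4a1 and Alas2. Bnip3l, which serves the clearance of mitochondria, had 65.8 and 51.7 TPM, and Tspo2 had 47.3 and 39.3. Tmod1, which caps the short actin filaments of the red cell skeleton, had 18 and 75 expected counts, or 0.29 and 4.03 TPM. These genes were named after their values were seen, and are given as values alone.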
